A study of Mus musculus with 12 samples.

Results

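The genes described here are 9 that neutrophils are known to express: the calprotectin subunits S100a8 and S100a9, the receptors Csf3r, Fpr1, Fpr2, Trem1 and Trem3, and the secreted proteins Ngp and Retnlg. They were followed by symbol, each through the probe set that the platform annotation lists under that symbol alone. Of the 9 members, 7 had such a probe set, 1 each, among 19938 genes in all. No probe set was listed under Fpr1 or Fpr2, and both were not analysed here. Values are log2 intensities, on which a difference of 1 is a doubling, and are given in the order of replicates 1, 2 and 3.

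The 12 skin biopsies came from female Balb/c mice with no genetic change named in the labels, and each was measured on 1 Affymetrix Mouse Gene 1.0 array. The 4 groups of 3 biological replicates were untreated skin and skin collected at 1.5 h, 6 h or 24 h from an injection into the dermis of RNAdjuvant, an adjuvant of non-coding RNA held by a cationic peptide (25 mg as labelled, a unit not checked here). The controls received no injection, so that the agent and the needle cannot be told apart, and all groups share the strain, sex and tissue. Each biopsy is whole skin with every cell type it held. The defining skin markers were high in every library: the mean of 7 epidermal and dermal genes lay between 11.11 and 11.67 on the log2 scale.

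Neutrophils are the first white cells to enter injured or infected tissue, drawn from blood by chemokines such as those encoded by Cxcl1, Cxcl2 and Cxcl5. S100A8 and S100A9 pair as calprotectin, which fills much of the neutrophil cytoplasm, binds metals that microbes need and, once released, acts on Toll-like receptor 4. Monocytes and stressed keratinocytes can make both subunits too. Csf3r is the receptor for G-CSF, the growth factor that drives neutrophil production and survival. Formyl peptide receptors steer neutrophils towards bacterial peptides, and TREM receptors amplify inflammatory signals through the adaptor encoded by Tyrobp.

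The promoters of S100a8, S100a9 and Csf3r are shown because they are the calprotectin pair and the receptor gene that passed the test. S100a8 and S100a9 are immediate neighbours in RefSeq's gene order. The windows are the 250 bases before the start of each gene from RefSeq on GRCm38.p6, read along the gene: chr3:90668821-90669070 (plus strand) for S100a8, chr3:90695722-90695971 (minus strand) for S100a9 and chr4:126024409-126024658 (plus strand) for Csf3r. RefSeq's promoter table held 8 of the 9 members. Capitals mark matches to the motifs named after the sequences.
S100a8: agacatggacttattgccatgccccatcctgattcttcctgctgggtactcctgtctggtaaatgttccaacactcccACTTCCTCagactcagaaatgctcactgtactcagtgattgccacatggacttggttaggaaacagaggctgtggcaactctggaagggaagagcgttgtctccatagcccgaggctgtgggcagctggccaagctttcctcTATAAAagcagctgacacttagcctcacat
S100a9: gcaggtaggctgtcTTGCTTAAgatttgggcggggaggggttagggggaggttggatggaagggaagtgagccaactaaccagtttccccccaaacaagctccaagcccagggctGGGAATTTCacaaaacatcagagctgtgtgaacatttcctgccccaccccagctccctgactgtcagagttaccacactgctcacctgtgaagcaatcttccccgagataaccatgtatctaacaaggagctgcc
Csf3r: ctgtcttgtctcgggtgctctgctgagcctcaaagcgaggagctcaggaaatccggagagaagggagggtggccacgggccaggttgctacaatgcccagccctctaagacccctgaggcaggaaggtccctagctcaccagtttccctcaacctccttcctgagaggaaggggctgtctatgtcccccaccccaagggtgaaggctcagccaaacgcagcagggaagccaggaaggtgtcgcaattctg
Motifs were searched on both strands over 32851 promoters of the same length. In S100a8 the capitals are the complement of the PU.1 motif GAGGAAGT, held by 2.44% of promoters, at 172 to 165 bases before the start, and a TATAAA box, held by 12.4%, at 30 to 25 bases. In S100a9 they are a C/EBP motif TTGCNNAA, held by 9.56% of promoters, at 236 to 229 bases, and an NF-kB motif GGGNNTTTC, held by 3.72%, at 135 to 127 bases. Csf3r held no match to these letters or to the STAT motif TTCNNNGAA (7.02% of promoters) and the interferon response element GAAANNGAA (7.13%). The matches overlap no other motif and are a description of letters only. Of the members not shown, Ngp held 2 C/EBP matches, Retnlg held 1, and Trem1 and Fpr2 held 1 match each to the STAT motif. Fpr1 and Fpr2 each held 1 TATAAA far upstream of the start, at 227 to 222 and 130 to 125 bases.

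At any of the 3 times, 3 of the 7 measured members differed from untreated skin (S100a9, Csf3r and Retnlg, moderated F test of limma, Benjamini-Hochberg adjusted p under 0.05), where 11.4% of all genes did. Against untreated skin S100a9 passed at 1.5 h, Csf3r at 6 h and 24 h, and Retnlg at 1.5 h and 24 h. S100a8, Trem1, Trem3 and Ngp did not pass the test at any time.

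**Figure D1:**
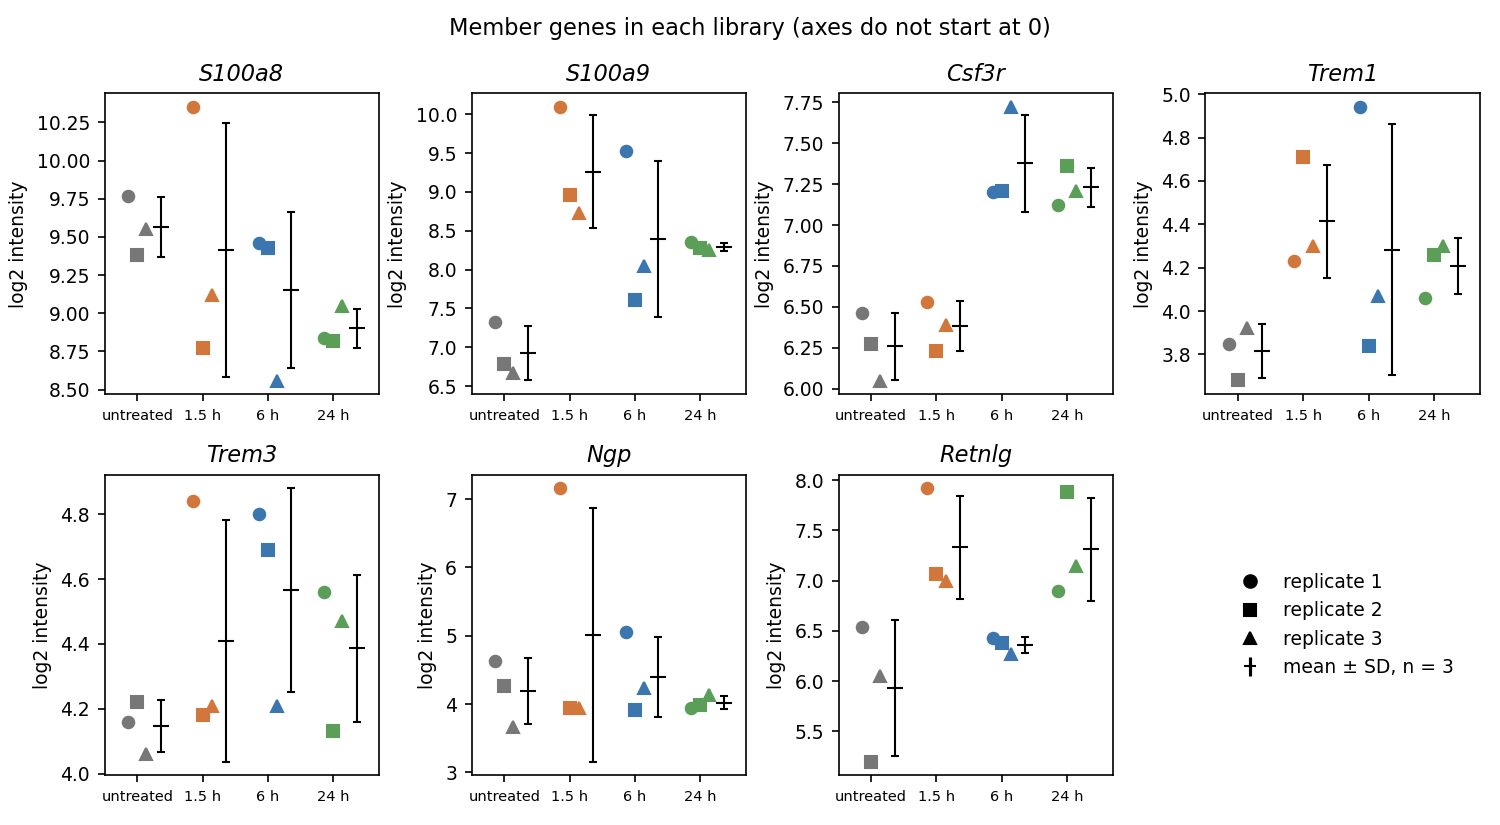
Log2 intensity (y axis) of the 7 measured members in untreated skin and at 1.5 h, 6 h and 24 h after RNAdjuvant (x axis). Marker shapes are replicates 1 to 3 and the bars are the mean ± SD of 3 libraries. All 3 libraries of S100a9 lay above untreated skin at every time, and Csf3r did so at 6 h and 24 h.

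Member calls against untreated skin were 2 higher and 0 lower at 1.5 h (S100a9 and Retnlg), where 0.612% of all genes were called higher and 1.59% lower. At 6 h they were 1 higher (Csf3r) and 0 lower, against 3.38% of all genes higher and 2.71% lower. At 24 h they were 2 higher (Csf3r and Retnlg) and 0 lower, against 2.55% and 0.808%. At an unadjusted p under 0.05, 3 members passed at each time. The share of all genes that did so was not computed, here or for the lists below. The median change of the members was 0.60, 0.43 and 0.39 at 1.5 h, 6 h and 24 h, beside 0.02, -0.04 and 0 over all genes.

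All 3 treated libraries lay above all 3 untreated ones for 3 members at 1.5 h (11.8% of all genes), 2 at 6 h (11.4%) and 4 at 24 h (10.9%). At 24 h, 1 member, S100a8, lay wholly below, as 12.4% of all genes did. At 1.5 h and 6 h 0 members did, against 13.3% and 19.3%. In bulk skin, more cells of a type and more RNA per cell cannot be told apart.

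S100a9, the larger subunit of calprotectin, measured 7.33, 6.78 and 6.67 in untreated skin. It measured 10.09, 8.96 and 8.73 at 1.5 h. At 6 h it measured 9.53, 7.61 and 8.05, and at 24 h 8.35, 8.28 and 8.25. No treated library overlapped the untreated ones at any time, replicate 1 stood highest at both early times, and the 24 h libraries lay within 0.10 of each other.

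The S100a9 mean rose from 6.93 ± 0.36 (SD, n = 3) to 9.26 ± 0.73 at 1.5 h, a log2 change of 2.33 (SE 0.42, 5.04-fold, 95% interval 1.43 to 3.24, adjusted p = 0.0166). The change was 1.47 at 6 h (2.77-fold, interval 0.56 to 2.37, adjusted p = 0.0569) and 1.37 at 24 h (2.58-fold, interval 0.46 to 2.27, adjusted p = 0.104), and neither passed the test. In order of level, 1.5 h came first, then 6 h, 24 h and untreated skin. The step from 6 h to 1.5 h was 0.86 in size (adjusted p = 0.187) and that from 24 h to 6 h 0.10 (adjusted p = 0.924), and neither passed the test. The first passed without 6 h replicate 1 (a change of -1.43 from 1.5 h to 6 h, adjusted p = 0.0158) and without the 2 libraries high in Glycam1 (-1.02, adjusted p = 0.0145). The 1.5 h call was lost without untreated replicate 2 (adjusted p = 0.0718) or replicate 3 (adjusted p = 0.0763), and with a variance trend and robust fit (adjusted p = 0.0501). The 6 h call was gained without 1.5 h replicate 1 (adjusted p = 0.0321) or 6 h replicate 2 (1.86, adjusted p = 0.03), and the 24 h call without 6 h replicate 1 (adjusted p = 0.0185) or with the 2 groups alone (adjusted p = 0.00124). A replicate block gave both calls (adjusted p = 0.00827 and 0.0165), although the labels link the libraries by no more than a replicate number.

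S100a8, the other calprotectin subunit, measured 9.77, 9.38 and 9.55 in untreated skin and 10.35, 8.77 and 9.12 at 1.5 h. It measured 9.46, 9.43 and 8.56 at 6 h and 8.84, 8.82 and 9.05 at 24 h. Libraries at 1.5 h spread on both sides of the untreated ones, and the 24 h libraries all lay below them. The changes were -0.16 (interval -0.87 to 0.55, adjusted p = 0.848), -0.42 (adjusted p = 0.455) and -0.67 (interval -1.38 to 0.04, adjusted p = 0.323) in time order. Fitted on the untreated and 24 h libraries alone, the 24 h value passed the test (adjusted p = 0.0223).

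The log2 difference S100a9 minus S100a8 within a library was -2.44, -2.60 and -2.88 in untreated skin. It was -0.26, 0.19 and -0.39 at 1.5 h, 0.08, -1.82 and -0.51 at 6 h, and -0.49, -0.54 and -0.79 at 24 h. All 9 treated libraries lay above all 3 untreated ones. The mean shifts were 2.49, 1.89 and 2.03, each with a two-sided exact permutation p of 0.1, the smallest that 3 against 3 samples can give. The difference was chosen after the values were seen. It describes unequal changes of the probe sets and not relative abundance, since levels of different probes are not comparable. Over the 12 libraries the pair correlated at r = 0.125 (Spearman's rho -0.091), a description of libraries that share their groups.

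Csf3r, the G-CSF receptor, measured 6.46, 6.27 and 6.05 in untreated skin and 6.53, 6.23 and 6.39 at 1.5 h. It measured 7.20, 7.21 and 7.72 at 6 h and 7.12, 7.36 and 7.21 at 24 h. Untreated and 1.5 h libraries overlapped, and every 6 h and 24 h library lay above all of both.

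The Csf3r mean went from 6.26 ± 0.21 (SD, n = 3) to 7.38 ± 0.29 at 6 h, a log2 change of 1.12 (SE 0.15, interval 0.79 to 1.45, adjusted p = 0.000426), and to 7.23 ± 0.12 at 24 h, a change of 0.97 (interval 0.64 to 1.31, adjusted p = 0.00194). At 1.5 h the change was 0.13 (interval -0.20 to 0.46, adjusted p = 0.712). The order of level was 6 h, 24 h, 1.5 h and untreated. The neighbours 24 h and 6 h, which differed by -0.15 (adjusted p = 0.641), and 1.5 h and untreated skin did not pass the test. The calls at 6 h and 24 h held when any single library was left out.

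Csf3r was the 1 member called between treated times. It was higher at 6 h than at 1.5 h by 0.99 (adjusted p = 0.00128) and at 24 h than at 1.5 h by 0.85 (adjusted p = 0.00696). Of the 7 members it was the 1 called higher in each of these comparisons, where 5.47% and 2.24% of all genes were. Limma called 0 members lower in either, where 7.8% and 0.667% of all genes were, and S100a9 and Retnlg were called lower at 6 h than at 1.5 h in some alternatives given with them. Between 24 h and 6 h limma called 0 members, where 2.03% of all genes were higher and 1.41% lower, and 1 passed an unadjusted p under 0.05. The comparisons with 1.5 h share its 3 libraries.

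Trem1, a receptor on neutrophils and monocytes that amplifies inflammation, was dim. It measured 3.85, 3.68 and 3.92 in untreated skin, 4.23, 4.71 and 4.30 at 1.5 h, 4.94, 3.84 and 4.07 at 6 h and 4.06, 4.26 and 4.30 at 24 h. All libraries at 1.5 h and 24 h lay above the untreated ones, while those at 6 h overlapped them. The changes were 0.60 (interval 0.11 to 1.08, adjusted p = 0.19), 0.47 (adjusted p = 0.233) and 0.39 (adjusted p = 0.413). The 1.5 h value passed the test without 6 h replicate 1 (adjusted p = 0.0483).

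Trem3, a related mouse receptor that pairs with the same adaptor, measured 4.16, 4.22 and 4.06 in untreated skin and 4.84, 4.18 and 4.21 at 1.5 h. It measured 4.80, 4.69 and 4.21 at 6 h and 4.56, 4.13 and 4.47 at 24 h. Each treated group overlapped the untreated one. The changes were 0.26, 0.42 and 0.24 (adjusted p = 0.502, 0.207 and 0.565). Both TREM genes stayed under every array's median of 5.53 to 5.76, and the table carries no detection p, so no level here was called absent.

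Retnlg, a resistin-like protein made by neutrophils and marrow, measured 6.54, 5.20 and 6.05 in untreated skin and 7.92, 7.07 and 7.0 at 1.5 h. It measured 6.43, 6.38 and 6.27 at 6 h and 6.90, 7.88 and 7.15 at 24 h. Groups at 1.5 h and 24 h lay above untreated skin, and the 6 h libraries fell within its range. Retnlg was higher by 1.40 at 1.5 h (2.65-fold, interval 0.70 to 2.11, adjusted p = 0.0427) and by 1.38 at 24 h (2.61-fold, interval 0.68 to 2.09, adjusted p = 0.0335), and 0.43 at 6 h did not pass (adjusted p = 0.441).

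Retnlg differed by -0.02 between 24 h and 1.5 h (adjusted p = 0.984), by 0.95 between 24 h and 6 h (adjusted p = 0.125) and by -0.97 between 6 h and 1.5 h (adjusted p = 0.0661), and none passed the test. The last passed without untreated replicate 1 (adjusted p = 0.0497) or 2 (adjusted p = 0.0348), with dim probe sets left out (adjusted p = 0.0453), with equal array medians (-1.11, adjusted p = 0.0278) and with the 2 groups alone (adjusted p = 0.033). The 1.5 h call was lost without untreated replicate 2 (1.04, adjusted p = 0.159) or 3 (adjusted p = 0.119), when any 1.5 h library was left out (adjusted p = 0.143, 0.0851 and 0.0549) and when any 6 h library was left out (adjusted p = 0.052, 0.0572 and 0.055). The 24 h call was lost without untreated replicate 2 (adjusted p = 0.129) or 3 (adjusted p = 0.0838), 6 h replicate 2 (adjusted p = 0.05) and 24 h replicate 2 (adjusted p = 0.105) or 3 (adjusted p = 0.0799).

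Ngp, a granule protein that neutrophils make while they mature in marrow, measured 4.63, 4.26 and 3.67 in untreated skin and 7.16, 3.94 and 3.95 at 1.5 h. It measured 5.05, 3.92 and 4.23 at 6 h and 3.95, 3.99 and 4.13 at 24 h. Replicate 1 at 1.5 h stood alone, and all 3 treated groups overlapped the untreated one. The changes were 0.83 (adjusted p = 0.533), 0.22 (adjusted p = 0.857) and -0.16 (adjusted p = 0.932), and without the libraries high in Glycam1 the first was -0.24.

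**Figure D2:**
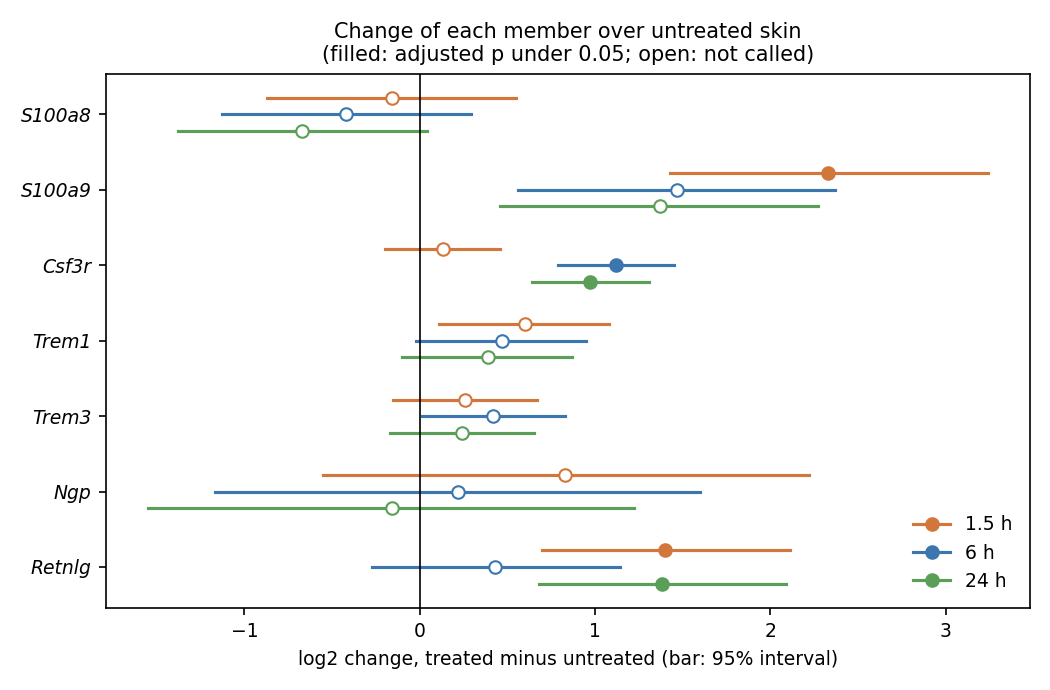
Log2 change over untreated skin (x axis) for the 7 measured members (y axis) at 1.5 h, 6 h and 24 h, with 95% intervals from limma. Filled points passed an adjusted p of 0.05 and open points did not, and S100a9 at 1.5 h shows a change of 2.33.

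The libraries differed in tissue content in ways the groups do not explain. Glycam1, which marks lymph node vessels, was 11.38 in 1.5 h replicate 1 and 10.88 in 6 h replicate 1 and between 3.87 and 4.46 in the others, and Cd79b of B cells was 7.80 and 7.29 in the same libraries. The 1.5 h replicate 1 library was the highest of 12 in 5 of the 7 members (S100a8, S100a9, Trem3, Ngp and Retnlg). It lay above the highest untreated value in all 7 members and in 33.1% of all genes. The other 1.5 h libraries did so in 3 members each, at 32.2% and 33.1% of all genes.

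Without these 2 libraries S100a9 passed the test at all 3 times: 1.92 at 1.5 h (adjusted p = 0.000571), 0.90 at 6 h (adjusted p = 0.0171) and 1.37 at 24 h (adjusted p = 0.000454). Csf3r passed at 6 h (1.21, adjusted p = 0.000929) and 24 h (0.97, adjusted p = 0.00225). Retnlg passed at 24 h (adjusted p = 0.0229) and not at 1.5 h (1.11, adjusted p = 0.156).

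Genes of glandular epithelium moved with S100a9. The mean log2 intensity of Krt18, Krt19, Csn3 and Wfdc18 was 5.40, 5.29 and 5.66 in untreated skin and 8.95, 7.68 and 7.92 at 1.5 h. At 6 h this mean read 8.63, 5.09 and 5.0, and at 24 h 7.91, 7.49 and 8.17. S100a9 in the 6 h libraries was 9.53, 7.61 and 8.05, and its highest untreated value was 7.33. The glandular mean was above untreated skin in every 1.5 h and 24 h library. At 6 h it was above in replicate 1 and below every untreated value in replicates 2 and 3. With that mean as a covariate, the S100a9 change at 1.5 h was 0.96 (adjusted p = 0.291), at 6 h 1.07 (adjusted p = 0.0196) and at 24 h 0.16 (adjusted p = 0.896). Where the mean moved with treatment, this fit cannot separate glandular tissue from treatment.

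Of the 6 glandular markers listed, limma called Krt19 (2.52) and Krt8 (1.47) higher at 1.5 h, 0 at 6 h and Krt8 (1.23) at 24 h. Without the libraries high in Glycam1 it called 6, 1 and 6 of them. The share of all genes called in that fit was not computed, here or for the lists below. Krt19 lost its call when any 1 of 7 libraries was left out (adjusted p up to 0.138), and Krt8 without untreated replicate 3 at 1.5 h (0.0501) and without untreated replicate 1 or 24 h replicate 1 or 3 at 24 h (up to 0.0625). The mean over the 6 ranged from 5.53 to 5.77 in untreated skin, 7.54 to 8.80 at 1.5 h, 5.41 to 8.47 at 6 h and 7.39 to 7.94 at 24 h. The part of glandular tissue in the S100a9 result was not tested. Csf3r at 6 h was 7.20 in replicate 1, where the glandular mean was 8.63, and 7.21 and 7.72 in replicates 2 and 3.

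**Figure D3:**
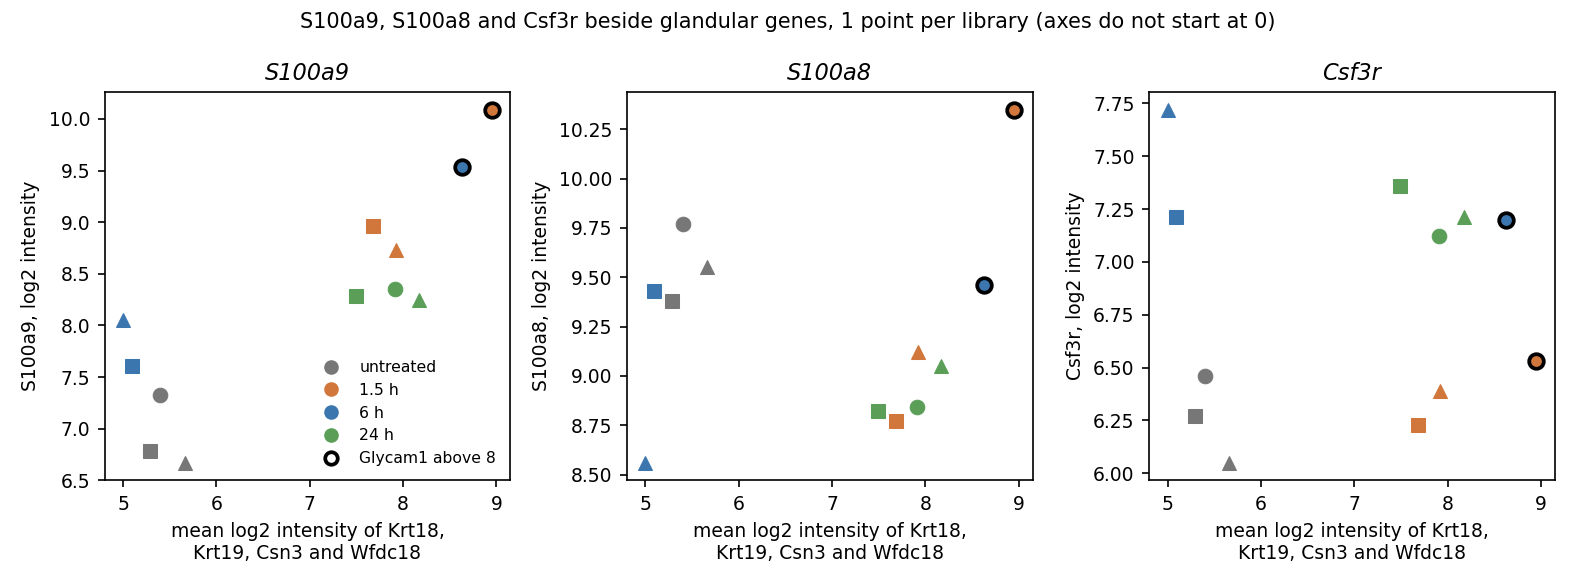
Log2 intensity of S100a9, S100a8 and Csf3r (y axes) against the mean log2 intensity of Krt18, Krt19, Csn3 and Wfdc18 (x axes), 1 point per library, with circles, squares and triangles for replicates 1, 2 and 3. The libraries with black rims are those high in Glycam1, and S100a9 reads 10.09 and 9.53 in them.

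The genes most like S100a9 over the 12 arrays, among 601 genes that vary and exceed the array median, were Krt7 (Pearson's r = 0.961), Wfdc2 (0.917), Tpsab1 (0.897), Krt8 (0.896) and Stc2 (0.856). Krt7 and Krt8 are keratins of simple epithelium, Wfdc2 is a secreted epithelial protein and Tpsab1 is a mast cell tryptase. Retnlg ranked 19 of 601 (r = 0.699), Csf3r 303 (r = 0.212) and S100a8 389. Their changes over untreated skin at 1.5 h were 1.54 (Krt7), 2.03 (Wfdc2), 1.13 (Tpsab1), 1.47 (Krt8) and 1.09 (Stc2), given as a description since the genes were chosen for following S100a9 over the same arrays.

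Csf3r was most like Scimp (r = 0.982), an immune adaptor, Irf8 (0.976), a transcription factor of myeloid cells, Slc15a3 (0.974), a lysosomal peptide transporter, Slc2a6 (0.968), a sugar transporter, and AA467197 (0.964). Their changes over untreated skin ran from -0.04 (Slc2a6) to 0.65 (Slc15a3) at 1.5 h, from 1.06 (Irf8) to 2.52 (Scimp) at 6 h and from 0.78 (Slc2a6) to 2.53 (AA467197) at 24 h. These are given as a description, since the genes were chosen for following Csf3r over the same arrays. These correlations describe arrays that share 4 groups and carry no p. Among the members, S100a9 and Trem1 correlated at r = 0.764, S100a8 and Ngp at 0.724, the latter with a Spearman's rho of 0.336.

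Other neutrophil genes rose in part. For every gene list, the shares of all genes called higher were 0.612%, 3.38% and 2.55% at 1.5 h, 6 h and 24 h. The shares called lower were 1.59%, 2.71% and 0.808%, and the median changes over all genes were 0.02, -0.04 and 0. Of 15 measured granule genes, limma called 2 higher at 1.5 h (Lcn2 and Slpi), 2 at 6 h (Mmp8 and Cd177), 3 at 24 h (Lcn2, Ltf and Slpi) and 0 lower, with medians of 0.49, 0.16 and 0.25. The change was positive in 15 of the 15 at 1.5 h, 12 at 6 h and 10 at 24 h. The mean over the 15 was 6.54, 5.67 and 5.75 in the 1.5 h libraries, so replicate 1 stood apart, and 5.30, 5.27 and 5.32 in untreated skin. Camp in 1.5 h replicates 2 and 3 (4.96 and 4.93) lay under its untreated mean of 5. Without the libraries high in Glycam1 the counts of granule genes called higher were 2, 2 and 3. Lcn2, an iron-trapping protein also made by epithelium, measured 6.35, 5.86 and 6.63 in untreated skin and 9.50, 8.61 and 8.96 at 1.5 h. It measured 9.47, 7.21 and 6.97 at 6 h and 9.12, 9.05 and 9.66 at 24 h. All treated libraries lay above the untreated ones, and replicate 1 stood apart at 6 h. Ltf, which encodes lactoferrin, measured 4.04, 3.86 and 4.19 in untreated skin, 6.73, 4.90 and 5.39 at 1.5 h, 6.33, 4.6 and 4.56 at 6 h and 6.02, 5.53 and 6.05 at 24 h. In both genes 6 h replicate 1 was high and 6 h replicates 2 and 3 were the lowest treated libraries, as in the glandular mean (8.63, 5.09 and 5.0 at 6 h), whose part in the granule gene results was not tested.

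Lcn2 changed by 2.74 at 1.5 h (adjusted p = 0.017), a call lost when untreated replicate 2 or 1.5 h replicate 1 was left out (adjusted p up to 0.0792), and by 3.0 at 24 h (adjusted p = 0.00285). Slpi, a protease inhibitor, rose by 1.36 and 1.52, and Ltf by 1.84 at 24 h (adjusted p = 0.0455). Mmp8, a collagenase, rose by 0.90 and Cd177, a surface protein of neutrophils, by 0.65 at 6 h. Mmp8 was dim, with no library above 4.55, under every array's median of 5.53 to 5.76. The calls of Slpi at 1.5 h and Mmp8 were lost when any 1 of 5 libraries was left out (adjusted p up to 0.128 and 0.115), that of Ltf when any 1 of 7 was (up to 0.153), that of Cd177 without untreated or 6 h replicate 3 (up to 0.0582), and that of Slpi at 24 h without 24 h replicate 3 (0.0517).

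Of 14 other surface receptors of neutrophils, limma called 3 higher at each time and 0 lower, with medians of 0.34, 0.21 and 0.40. Without the libraries high in Glycam1 the counts were 2, 5 and 5. The change was positive in 12 of the 14 at 1.5 h, 8 at 6 h and 13 at 24 h. At 6 h against 1.5 h limma called 2 higher and 3 lower, where 5.47% and 7.8% of all genes were. Clec4e, a receptor of damage and mycobacterial lipid, rose by 1.65, 2.18 and 3.35 in time order (adjusted p = 0.00535, 5.48e-05 and 1.45e-06). Cxcr2, a receptor of CXC chemokines such as those encoded by Cxcl1, Cxcl2 and Cxcl5, rose by 1.32 at 1.5 h (adjusted p = 0.0424). The call was lost when any 1 of 9 of the 12 libraries was left out (adjusted p up to 0.139). C5ar1, the receptor of complement fragment C5a, rose by 0.80 at 1.5 h, lost when any 1 of 5 libraries was left out (up to 0.128). Its mean at 6 h was 6.82, under the 7.07 of untreated skin, and was not called.

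At 6 h and 24 h the other receptors called were Fcgr4, an Fc receptor shared with monocytes (3.73 and 4.66, adjusted p = 6.07e-07 and 2.49e-07), and Clec4d, a partner of Clec4e (1.64 and 1.69, adjusted p = 0.000594 and 0.000609). Ly6g, which defines mouse neutrophils, changed by 0.27, 0.71 and 0.41 and did not pass (adjusted p = 0.638, 0.128 and 0.46). It measured 3.14, 2.91 and 3.06 in untreated skin and 3.96, 2.85 and 3.12 at 1.5 h. It measured 3.37, 3.65 and 4.24 at 6 h and 3.17, 3.46 and 3.72 at 24 h. All 6 h and 24 h libraries lay above the untreated ones, as 11.4% and 10.9% of all genes did. Ly6g was dim, under every array's median of 5.53 to 5.76. Ly6g, Camp, Csf3, Stat3, Asprv1 and Wfdc21 were named after their values were seen.

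Of 12 cytoplasmic and nuclear genes of mature neutrophils, 1 was called higher at 1.5 h, 3 at 6 h, 2 at 24 h and 0 lower, and without the libraries high in Glycam1 the first count was 0. Asprv1 and Wfdc21 of this list already had means of 11.14 and 10.01 in untreated skin, and the cells that made them were not identified. Slfn4, an interferon-induced myeloid gene, rose by 4.17 at 6 h and 3.59 at 24 h, and the cytokine gene Il1b by 1.16 and 1.12 (adjusted p = 0.00289 and 0.00494). Mxd1 rose by 0.52 at 6 h and Ifitm6 by 0.90 at 1.5 h (adjusted p = 0.0285 and 0.0484), calls lost when any 1 of 5 and of 8 libraries was left out (up to 0.109 and 0.175). Camp, which encodes cathelicidin, was like Ngp: 6.85 in 1.5 h replicate 1 and 4.84 to 5.24 in all other libraries.

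**Figure D4:**
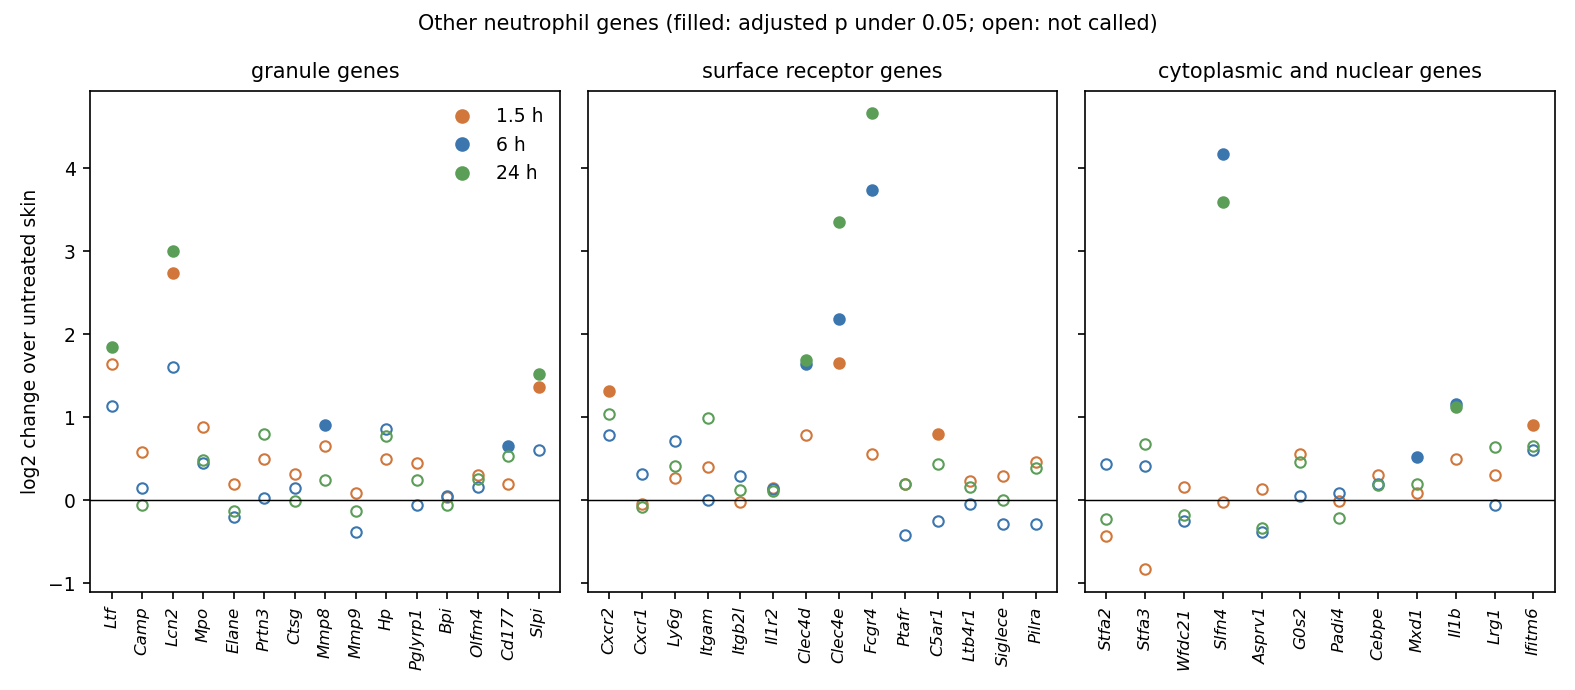
Log2 change over untreated skin (y axis) of granule, surface receptor and cytoplasmic or nuclear genes of neutrophils (x axis) at 1.5 h, 6 h and 24 h. Filled points passed an adjusted p of 0.05, and Fcgr4 at 24 h reads 4.66 while Ly6g reads 0.41.

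Of the 5 ligands of the member receptors, Saa3 passed at each time. It encodes a serum amyloid A protein, a family that acts on formyl peptide receptors. Saa3 measured 4.16, 4.42 and 3.85 in untreated skin, 5.56, 5.46 and 5.81 at 1.5 h, 8.84, 9.28 and 9.91 at 6 h and 10.72, 10.81 and 11.16 at 24 h. No group overlapped another. The changes were 1.47, 5.20 and 6.75 (adjusted p = 0.00791, 1.21e-08 and 1.98e-09). Csf3, which encodes G-CSF, the ligand of Csf3r, changed by 0.30, 0 and 0.26 and did not pass (adjusted p = 0.209, 0.989 and 0.288).

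Of 9 genes of G-CSF receptor signalling, 1 was called higher at 1.5 h, 4 at 6 h and 0 at 24 h, with medians of 0.17, 0.25 and 0.24 and 0 lower. Limma called 0 at 24 h, where 4 passed an unadjusted p under 0.05. At 6 h they were the kinase gene Jak2 (0.95), the transcription factor genes Stat3 (0.69) and Cebpd (0.80), and Socs3 (1.21), whose product is the feedback inhibitor of this receptor. Socs3 also passed at 1.5 h (0.91, adjusted p = 0.0477), a call lost when any 1 of 9 libraries was left out (up to 0.148). Cebpd (adjusted p = 0.0152) lost its call without untreated replicate 2 or 3 or 6 h replicate 2 (up to 0.0677). These genes serve many receptors of cytokines.

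Of 7 receptors and adaptors of calprotectin, Cd14, a co-receptor of Toll-like receptor 4, was called at 1.5 h (0.91, adjusted p = 0.0329, lost when any 1 of 5 libraries was left out, up to 0.133). Its adaptor gene Myd88 was called at 6 h (1.43, adjusted p = 2.04e-05) and 24 h (0.83, adjusted p = 0.00419). Of 12 genes of formyl peptide receptor signalling and the oxidase, 1 passed at 1.5 h (Ncf1, 0.70), 1 at 6 h (Cybb, 1.33) and 7 at 24 h, with medians of 0.15, 0.14 and 0.64. The largest of the 7 were the GTPase gene Rac2 (1.25), Cyba (1.15) and Cybb (1.11), the last pair encoding the membrane part of the oxidase. The count of 7 was 2 without untreated replicate 2, and Rac2, Cyba and Cybb lost their calls when any 1 of 8, 2 and 6 libraries was left out (up to 0.166, 0.0754 and 0.148). Ncf1 at 1.5 h was lost when any 1 of 8 was left out (up to 0.169).

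Of 7 TREM signalling genes, 0 passed at 1.5 h and 6 h (limma, with 1 and 0 at an unadjusted p under 0.05) and 2 at 24 h. They were the adaptor genes Tyrobp (0.86, adjusted p = 0.0281), lost without untreated replicate 2 or 24 h replicate 2 or 3 (up to 0.128), and Lat2 (0.93, adjusted p = 0.00219). Of 11 other genes of the formyl peptide receptor, TREM and resistin families, Treml2 passed at 6 h (1.32, adjusted p = 0.0218), lost without untreated replicate 1 or 3 (up to 0.0856). Of 14 other S100 genes, S100z passed at 1.5 h (0.58, adjusted p = 0.0229, lost when any 1 of 5 libraries was left out, up to 0.0942), and the medians were 0.08, -0.14 and -0.05. S100z was dim, at 3.19 to 3.99 over the libraries, under every array's median of 5.53 to 5.76.

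Of 10 genes that draw neutrophils into tissue, 1, 3 and 5 were called higher in time order and 0 lower, with medians of 0.18, 0.38 and 0.85. Cxcl1 rose by 1.39, 1.54 and 1.57 (adjusted p = 0.0213, 0.00313 and 0.00345), the first lost without untreated replicate 1 or 2 or 1.5 h replicate 3 (up to 0.0718). Cxcl2 rose by 2.01 and the vessel adhesion gene Icam1 by 1.44 at 6 h. Cxcl5 rose by 1.91 (adjusted p = 5.54e-06) and the leukocyte integrin gene Itgb2 by 1.13 at 24 h, the latter lost without untreated replicate 2 or 24 h replicate 2 or 3 (up to 0.0947). Cxcl5 was dim, with no library above 5.47, under every array's median of 5.53 to 5.76.

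Markers of other cells that could share the member genes were read beside them, and their part in the member results was not tested. Of 13 stressed epidermis markers 0 passed at any time (limma, 1 at an unadjusted p under 0.05 at each time). Their mean ranged from 5.88 to 6.38 in untreated skin, 5.78 to 6.15 at 1.5 h, 5.52 to 6.58 at 6 h and 5.42 to 6.14 at 24 h. Of 11 monocyte and macrophage markers, 0 passed at 1.5 h, 1 rose (Fcgr1, 3.15) and 1 fell (Cd163, -0.77) at 6 h, and 4 rose at 24 h, led by Fcgr1 (3.16), Ccr2 (1.28) and Adgre1 (0.89). At 24 h the changes of 8 of the 11 were positive and 0 were called lower. Cd163, Mrc1 and Csf1r had lower means at 24 h (8.16, 9.12 and 8.88) than in untreated skin (8.86, 9.64 and 9.1). The mean over the 11 markers ranged from 8.38 to 8.97 in untreated skin, 8.67 to 9.12 at 1.5 h, 8.72 to 9.32 at 6 h and 9.16 to 9.59 at 24 h. Adgre1 lost its call when any 1 of 6 libraries was left out and Cd163 when any 1 of 9 was (adjusted p up to 0.176 and 0.169), and the count of 4 was 2 without untreated replicate 2.

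Of 7 epidermal and dermal markers, Krt1 (-0.44) and Lor (-0.46) were lower at 24 h, calls lost when any 1 of 9 and of 6 libraries was left out (adjusted p up to 0.146 and 0.1). Lists of eosinophil, mast cell and basophil (10), red cell and platelet (4), lymph node and B cell (6) and skeletal muscle (6) markers had 0 calls at any time by limma (the mast cell gene Tpsab1, not in these lists, had an adjusted p of 0.035 at 1.5 h), with at most 2 members of a list at an unadjusted p under 0.05. The lymph node mean ranged from 3.64 to 3.79 in untreated skin, 3.69 to 6.75 at 1.5 h, 3.76 to 6.55 at 6 h and 3.93 to 3.97 at 24 h. Myl2 of muscle was 10.43 and 10.56 in 1.5 h replicates 2 and 1 and 10.57 and 9.33 in 24 h replicates 1 and 3, against 4.65 to 5.06 in untreated skin.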

How the data were processed

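RNA of 12 skin biopsies was amplified, biotin-labelled and hybridised, per the labels' protocols. Per the submitters' processing notes, the authors used Affymetrix Expression Console 1.1 and RMA to make the deposited log2 intensities, whose scale was taken from their range of 0.65 to 14.11. RMA sets arrays to a common distribution and gives no detection call, and the array number limits the precision. The deposited arrays still differed in their medians, which ran from 5.53 to 5.76. Of 35556 probe sets, 21789 had 1 symbol, 1621 had several and 12146 were not listed. The probe set with the highest mean was kept where a gene had several, which left 19938 genes. Log2 values of the 4 groups entered 1 linear model (limma 3.58.1, lmFit then eBayes, R 4.3.3), p-values were adjusted by Benjamini-Hochberg over all genes within a comparison, and adjusted p under 0.05 was called. Tests are two-sided and intervals cover 95%. The steps were tested on simulated data.

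The members and lists were chosen with earlier results of these data known. Besides the members, the text names per list and comparison at most 3 called genes with the largest change and the largest called the other way, the 5 genes most like S100a9 and Csf3r (highest group mean over the array median, SD of at least 0.5), and Glycam1, Cd79b, Myl2 and the glandular genes. Sequences come from RefSeq's promoter table on GRCm38.p6, and TATAAA was added to the motifs after the data were seen. The build behind the probe sets is not given in the sources used here, nor is whether each replicate is 1 mouse. Alternatives were a replicate block, leaving out each library, other variance models, weights, filters, a floor, scalings, probe set rules and thresholds, and 2 groups alone. A fit with the glandular mean as a covariate was added after the data were seen. Figures were drawn with matplotlib 3.10.9.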

Additional observations from a re-analysis of the deposited data

Results flagged for a closer look

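The change of Csf3r, the G-CSF receptor gene, over untreated skin differed between times in the test of the difference itself, since the contrast of 2 treated times is the difference of their changes over the shared untreated group. Csf3r was higher at 6 h than at 1.5 h by 0.99 and higher at 24 h than at 1.5 h by 0.85 on the log2 scale (limma, adjusted p = 0.00128 and 0.00696), in 3 of 3 libraries of each later time against all 3 at 1.5 h. The cause was not tested. Groups of 3 were not screened for single outlying samples.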

How the results depend on the processing

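The counts of members called at adjusted p under 0.05 were recomputed under each alternative. At 1.5 h the count of 2 was 1 with a replicate block, 1 without the 2 libraries high in Glycam1, 1 with only the 2 groups compared, and 0 with a variance trend and robust fit, without moderation, with a floor of 5, at an adjusted p under 0.01 and with the glandular covariate. At 6 h the count of 1 was 2 with a replicate block, without the Glycam1 libraries, with array weights, with dim probe sets left out, under quantile normalization, under cyclic loess and with the covariate. At 24 h the count of 2 was 1 with trend and robust fit, without moderation, with the floor, at the stricter p, with a 2-fold minimum and with the covariate, and 3 with a replicate block, without the Glycam1 libraries and with only the 2 groups compared. With only the 2 groups, Csf3r and S100a9 (adjusted p = 0.00124) were called higher and S100a8 lower (-0.67, adjusted p = 0.0223), while Retnlg was lost (adjusted p = 0.0614). For 6 h against 1.5 h the count of 1 was 2 without the Glycam1 libraries, with dim probe sets left out, with equal array medians and with only the 2 groups compared, and 0 with the 2-fold minimum. The added call was lower at 6 h each time, for S100a9 without the Glycam1 libraries and for Retnlg in the others. For 24 h against 1.5 h it was 0 without moderation and with the 2-fold minimum. The moderated F count of 3 was 1 without moderation, with the floor and at the stricter p. Leaving out 1 library at a time gave 0 to 2 at 1.5 h, 1 to 2 at 6 h, 1 to 3 at 24 h, 1 to 2 for 6 h against 1.5 h, 1 for 24 h against 1.5 h, 0 for 24 h against 6 h and 1 to 3 for the F test, which was 1 without untreated replicate 3. The causes were not tested.

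Of single changes of the members, none that was called turned its direction in these alternatives. Under the replicate block, S100a9 passed at 6 h (adjusted p = 0.00827) and 24 h (0.0165) and Retnlg at 1.5 h did not (0.051). The 18 pairs of libraries with the same number correlated at -0.215 to 0.334 in their deviations from the group means, and the 36 other pairs at -0.285 to 0.238. These ranges overlap and cannot show whether libraries with the same number share more than that number. Csf3r kept its calls at 6 h and 24 h against untreated skin under every alternative run but the 2-fold minimum, which its 24 h change of 1.965-fold misses. Over all genes, the share of calls that were higher moved with the scaling: at 1.5 h from 27.8% to 56.9% with equal array medians and 43.2% under quantile normalization, at 6 h from 55.5% to 69.4% under cyclic loess, for 6 h against 1.5 h from 41.2% to 16.5% and 55%, and for 24 h against 6 h from 59% to 80.2% and 44%, with equal medians and cyclic loess. With equal medians the median change over all genes was 0.12 at 1.5 h, -0.17 for 6 h against 1.5 h and 0.11 for 24 h against 6 h, beside 0.02, -0.03 and 0.02 as deposited. Signal over background could not be judged, since no detection values were used.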
